A study of Rattus norvegicus with 12 samples.

Results

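Isoform usage, the division of a gene's RNA among its alternative transcripts, was measured in 3059 rat genes that had 2 or more annotated transcripts and a mean level of at least 5 CPM. CPM is the count of a gene divided by the library total and expressed in ppm, here from the deposited estimated counts summed over its annotated transcripts. The 3059 genes held 7900 annotated transcripts, called isoforms below, out of 41078 annotated transcripts in 32883 genes and 78025 transcript rows in all. A further 2328 genes with 2 or more annotated isoforms lay below the level limit. The gene just below it, ENSRNOG00000005233, had 4.99 CPM, and the gene just inside it, ENSRNOG00000059406, had 5.00 CPM. The level and the number of isoforms chose the genes, and the isoform shares described below did not enter the choice.

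The libraries came from the prefrontal cortex of SD rats (the strain as labelled) on postnatal day 28. There were 4 libraries labelled normal, 4 from the model group, which is labelled HIBD for hypoxic-ischemic brain damage, and 4 from the acupuncture group, in which the series title describes rats with such damage treated with acupuncture. The labels do not say how the damage was induced, on which day, which points were needled, or whether each library was 1 animal. The p-values therefore measure the spread between these libraries. In bulk tissue, fewer cells of a type and less RNA per cell cannot be told apart, nor can a shift of isoforms within cells and a shift between cells that use different isoforms. Libraries are named by the number in their label: normal 8, 10, 11 and 13, HIBD 2, 8, 16 and 18, and acupuncture 5, 22, 35 and 55.

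Alternative isoforms arise when transcription starts or ends at different sites or when exons are joined in different combinations. In the brain, alternative splicing is widespread and changes the receptors, channels and scaffold proteins of neurons during development. An isoform switch is a change in which isoform supplies most of a gene's RNA, and it can occur with no change in the gene's total level. The share of an isoform was its FPKM (fragments per transcript length and library total) as a percent of the summed FPKM of the gene's annotated isoforms. Since FPKM is per length, isoforms of unequal length can be compared within a gene. Isoforms of a gene share much of their sequence, so the shares are estimates of how shared reads were divided, and the shares of a gene always sum to 100%. The files name genes and isoforms by Ensembl identifiers only and do not pair them with symbols, so gene functions and the tissue's marker genes were not analysed here.

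Most of the 3059 genes had few isoforms and a single dominant one. The number of annotated isoforms was 2 in 2175 genes (71.1%), 3 in 496 genes (16.2%) and at most 20. Of the 7900 isoforms, 327 were listed at 0 in all 12 libraries and 6361 were above 0 in all of them. The summed FPKM was above 0 in every library in 3041 genes with 7856 isoforms, and shares are described for these. The leading isoform, the one with the highest mean share, supplied a median of 87.3% of the gene's FPKM (quartiles 67.4% and 97.7%). In 1034 genes (34.0%) it supplied at least 95%, and in 133 genes (4.37%) less than 50%. A divided output, with 2 or more isoforms at 20% or more each, was seen in 1118 genes. Among the 1115 of these with an estimable length for both leading isoforms, the leading one was the longer in 575 (51.6%).

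The leading isoform was the same in all 12 libraries in 2332 genes (76.7%). It was not the same among the 4 normal libraries in 434 genes (14.3%), among the 4 HIBD libraries in 486 genes (16.0%) and among the 4 acupuncture libraries in 454 genes (14.9%). In 707 genes (23.2%) it differed within at least 1 group, and in 210 genes (6.91%) within all 3. In 2 of the 3041 genes the leading isoform was constant within each group and differed between groups. That condition is stricter, since every library must match its group, so the 2 genes cannot be weighed against the counts above. Averaged over all pairs of libraries, 8.77% of these genes differed in leading isoform, against 16.4% of genes below 5 CPM.

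**Figure D1:**
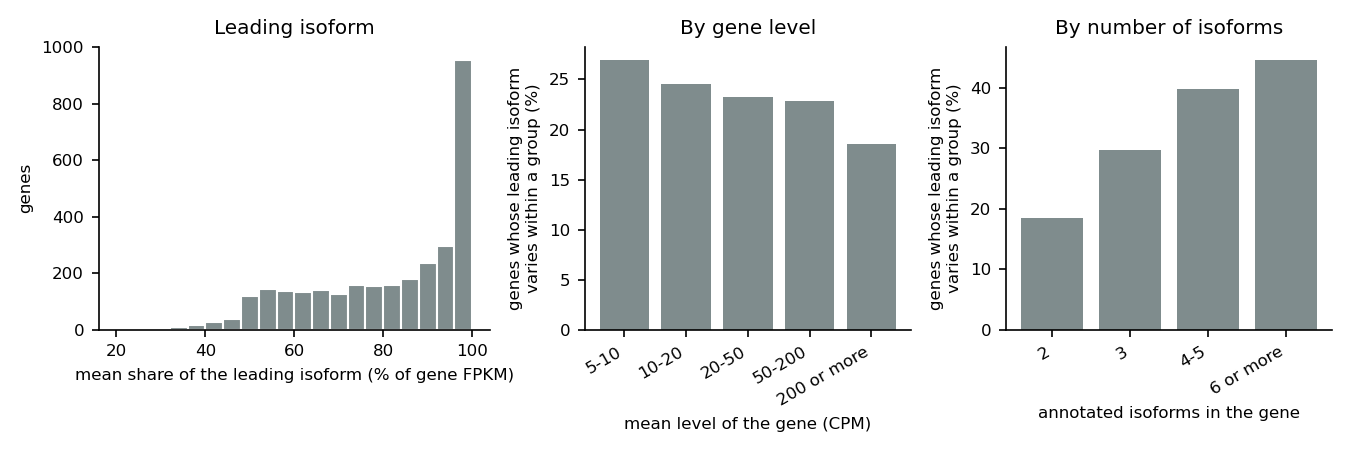
Left, number of genes (vertical axis) by the mean share of the leading isoform over 12 libraries (horizontal axis, % of gene FPKM). Middle and right, percent of genes whose leading isoform differed among the libraries of at least 1 group, by the mean level of the gene (CPM) and by its number of annotated isoforms. Bars are whole-set percentages with no error. The percentage goes from 26.9% in the lowest level class to 18.5% in the highest, and from 18.6% with 2 isoforms to 44.5% with 6 or more.

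Variation of the leading isoform within groups was found at every expression level. It was seen in 26.9% of 461 genes at 5 to 10 CPM, in 23.2% of 745 genes at 20 to 50 CPM and still in 18.5% of 443 genes at 200 CPM or more. The number of isoforms separated the genes more widely. The leading isoform varied within a group in 18.6% of 2161 genes with 2 isoforms, 29.7% of 495 genes with 3, 39.8% of 266 genes with 4 or 5, and 44.5% of 119 genes with 6 or more. By its mean share, it varied in 76.9% of the 373 genes with a leading isoform at 50 to 60%, and in 1.02% of the 1372 genes with one at 90% or more. Among genes with a second isoform of 20% or more, the median standard deviation (SD) of the leading share within groups was 8.86 points where both leading isoforms had nearly the same length (502 genes, log2 length ratio under 0.1). It was 6.59 points at a log2 ratio of 0.1 to 0.5 and 6.83 points at 0.5 to 1. In 213 genes where the lengths differed by a log2 ratio of 1 or more it was 5.68 points. The percent of genes whose leading isoform varied within a group showed no such order, at 56.2%, 51.7%, 51.2% and 55.4% in the same classes. These classes were set after the values were seen and carry no test.

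Some isoforms went from most of a gene's output to none between libraries of the same group. In the normal group, 106 of the 3361 isoforms that reached 50% of their gene in a library were listed at 0 in another library of that group (3.15%). In the HIBD group there were 99 of 3401 (2.91%), and in the acupuncture group 102 of 3372 (3.02%). Over the 5489 isoforms with a mean share of 5% or more, the median SD of the share among 4 libraries was 2.70 points in the normal group, 3.44 points in the HIBD group and 3.12 points in the acupuncture group. The SD was above 10 points for 18.9%, 20.4% and 19.4% of these isoforms. The library with the fewest isoforms of this kind listed at 0 had 1.60% of them and the library with the most had 2.44%. In genes below 5 CPM the range was 8.74% to 12.4%, a difference that is not independent of the level limit. The percent listed at 0 was 2.00% ± 0.322 (SD, n = 4) in normal, 2.02% ± 0.411 in HIBD and 1.99% ± 0.181 in acupuncture libraries. The groups overlapped, and the 3 comparisons had an exact permutation p adjusted over 3 of 0.943 each (two-sided, 70 assignments).

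The 4 most abundant genes with 2 isoforms of 20% or more differed in their spread between libraries. ENSRNOG00000016516 had a mean summed level of 2058 FPKM in normal libraries, and its leading isoform ENSRNOT00000022280 held 64.1%, 68.8%, 65.4% and 67.3% there. The same isoform held 68.4%, 68.0%, 61.0% and 64.7% in HIBD and 64.2%, 66.6%, 64.2% and 63.0% in acupuncture libraries. All 12 values lay in 1 narrow band and the groups overlapped. ENSRNOG00000052802 was similar, with ENSRNOT00000080988 at 68.9% ± 3.75 (SD, n = 4) in normal, 68.3% ± 3.89 in HIBD and 64.9% ± 4.87 in acupuncture libraries. ENSRNOG00000012482 was divided almost equally, with ENSRNOT00000017494 at 46.6% ± 4.23, 48.4% ± 2.61 and 44.4% ± 2.99 in the same order and ENSRNOT00000017413 at 44.1% ± 3.84, 42.6% ± 5.16 and 49.2% ± 3.25. The isoform with the higher share in that gene thus differed from library to library.

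ENSRNOG00000018454, the second most abundant, varied more. Its isoform ENSRNOT00000041891 held 74.8%, 66.1%, 85.7% and 93.7% in normal, 88.0%, 66.3%, 91.0% and 82.9% in HIBD, and 74.6%, 84.4%, 51.6% and 42.0% in acupuncture libraries. Acupuncture 35 and 55 were the lowest, and the other two acupuncture libraries lay among the normal and HIBD values.

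**Figure D2:**
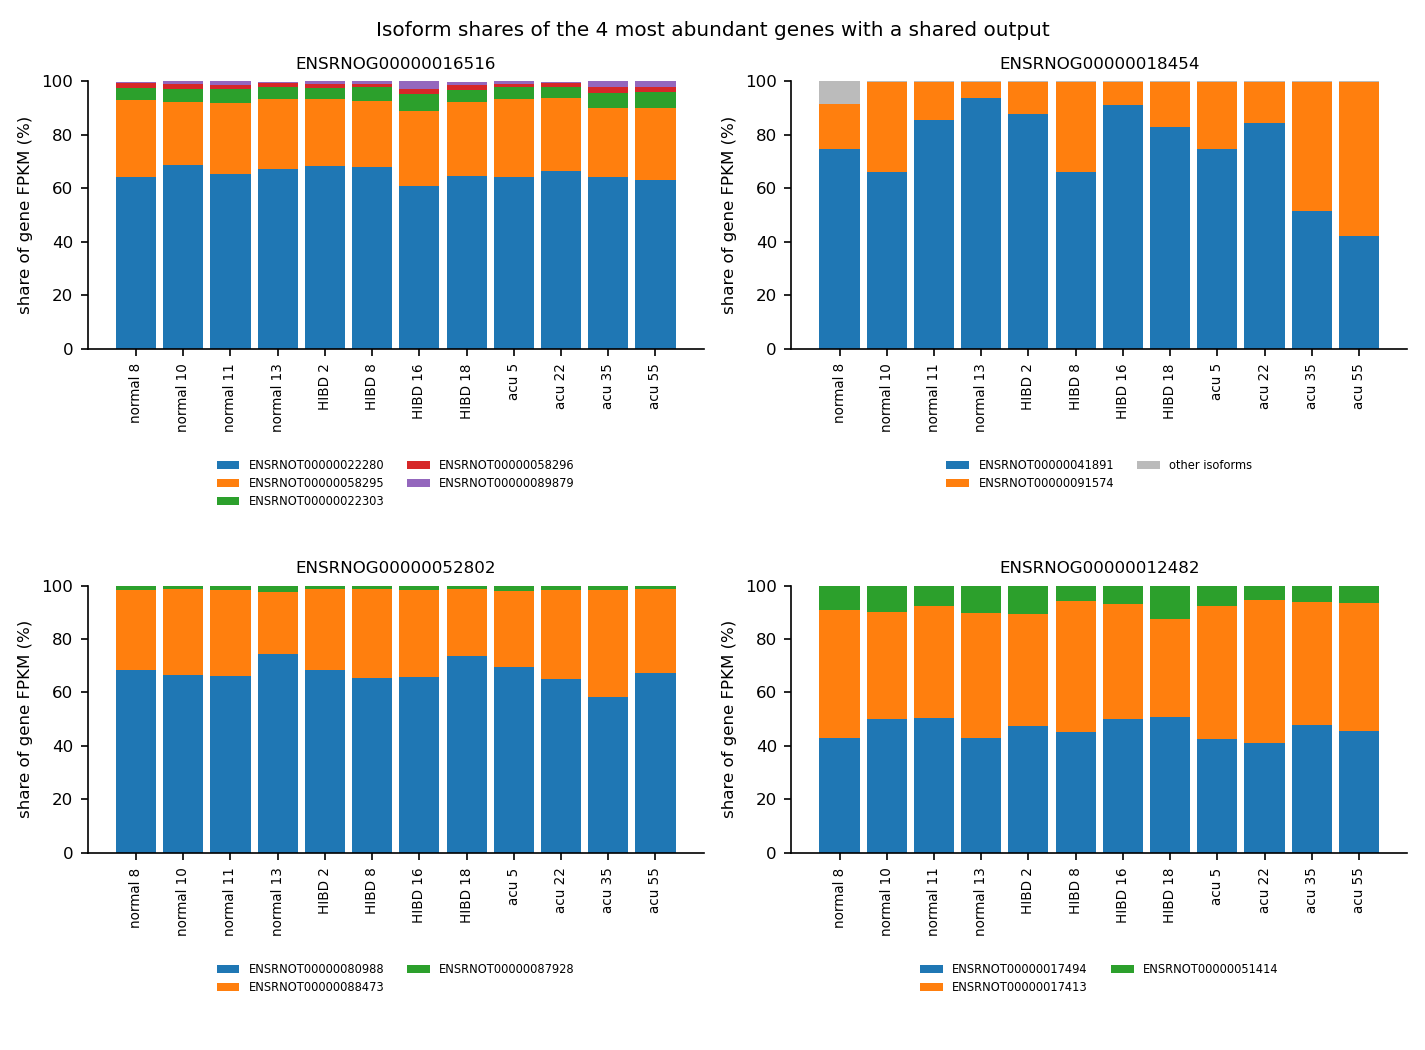
Stacked shares (vertical axis, % of the gene's annotated FPKM) in each of the 12 libraries (horizontal axis) for the 4 most abundant genes with 2 isoforms of 20% or more. Each colour is 1 isoform, and isoforms with a mean share under 1% are drawn together in grey. ENSRNOT00000041891, the lowest segment of ENSRNOG00000018454, ranges from 42.0% to 93.7%, while ENSRNOT00000022280 of ENSRNOG00000016516 ranges from 61.0% to 68.8%.

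Whole isoform profiles were compared between pairs of libraries with a share distance, the part of a gene's output, in percentage points, that would have to move from one isoform to another to turn one profile into the other. The median over genes was 1.92 points for the 6 pairs within normal, 2.43 points within HIBD and 2.32 points within acupuncture. Between groups it was 2.49 points for the 16 pairs of normal and HIBD, 2.44 points for normal and acupuncture, and 2.40 points for HIBD and acupuncture. The between-group pairs exceeded the within-group pairs by 0.313 points for HIBD against normal and by 0.324 points for acupuncture against normal. Each had a two-sided exact permutation p of 0.0286, the smallest that 70 assignments of the libraries allow, and 0.0429 adjusted over the 3 comparisons. The excess was 0.0223 points for acupuncture against HIBD (adjusted exact permutation p = 0.686). Both comparisons with an excess used the same 4 normal libraries, which were the tightest group, and the distance between normal and HIBD was close to the distance within HIBD. Without any 1 of the normal libraries, or without acupuncture 35 for acupuncture against normal, the adjusted exact permutation p was 0.0857 to 0.171. The excess was then as low as 0.182 points without normal 8 for HIBD against normal, and it reached 0.532 points without HIBD 2 and 0.531 points without acupuncture 55 for acupuncture against normal.

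The percent of genes with a different leading isoform gave a similar picture. It averaged 8.14% within normal, 8.93% within HIBD and 8.43% within acupuncture. It averaged 8.99% between normal and HIBD, 8.91% between normal and acupuncture, and 8.72% between HIBD and acupuncture. The excess of between-group pairs was 0.453 points for HIBD against normal and 0.620 points for acupuncture against normal (adjusted exact permutation p = 0.0429 each), and 0.0322 points for acupuncture against HIBD (adjusted exact permutation p = 0.771). Within HIBD a pair of libraries differed in about as many genes as a pair of normal and HIBD libraries.

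**Figure D3:**
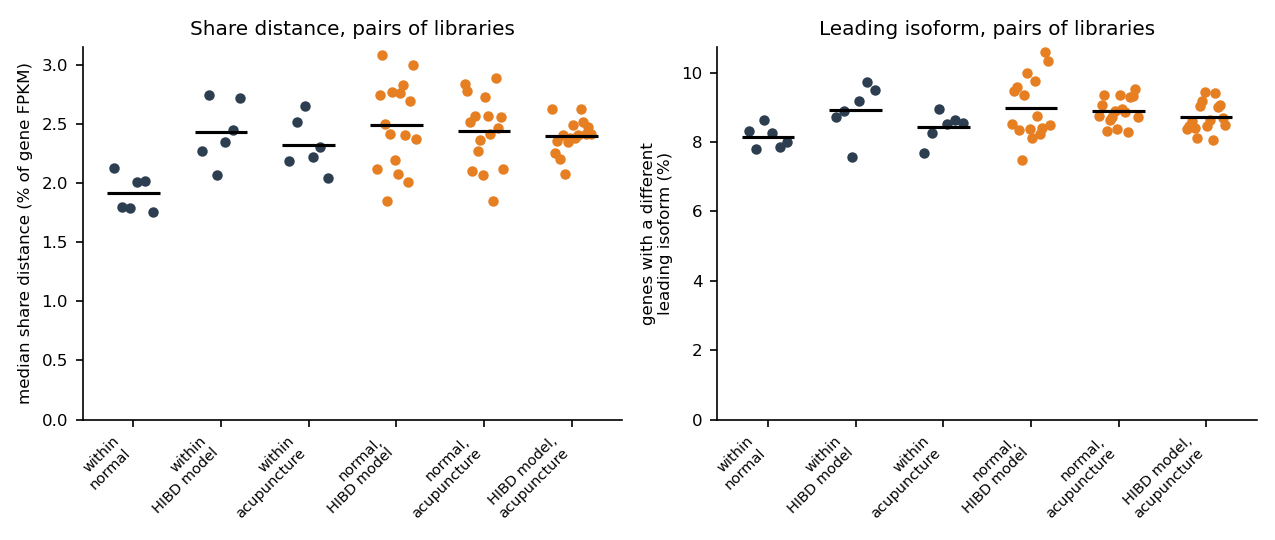
Left, median share distance over 3041 genes (vertical axis, points of gene FPKM) for each pair of libraries. Right, percent of genes with a different leading isoform for the same pairs. Dark points are the 18 pairs within groups, orange points the 48 pairs between groups, and lines are means. The normal pairs have the lowest mean, at 1.76 to 2.13 points, and overlap pairs of other kinds, such as normal 11 with acupuncture 55 at 1.85 points. The lowest pair on the right is normal 10 with HIBD 2, at 7.50%.

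The number of isoforms in use and their length differed little between the groups. The effective number of isoforms, the inverse of the summed squared shares, had a median over genes of 1.204 ± 0.00986 (SD, n = 4) in normal, 1.224 ± 0.00828 in HIBD and 1.229 ± 0.0146 in acupuncture libraries. The difference was 0.0203 for HIBD against normal and 0.0252 for acupuncture against normal (adjusted exact permutation p = 0.0857 each), and 0.00484 for acupuncture against HIBD (adjusted exact permutation p = 0.543). With shares of estimated counts the differences from normal were smaller, 0.00855 for HIBD and 0.0140 for acupuncture, and with genes of 20 CPM or more the difference for HIBD was 0.0123 (adjusted exact permutation p = 0.171 each). The share-weighted length of a gene's isoforms, as a median over genes on the log2 scale, differed by -2.83e-05 for HIBD against normal and by -2.75e-05 for acupuncture against normal (exact permutation p = 0.0286 and 0.0571, adjusted 0.0857 each). It differed by 8.29e-07 for acupuncture against HIBD (adjusted exact permutation p = 0.857). As a mean over genes, a summary added after the values were seen, it differed by -0.00351 for HIBD against normal, by 0.00171 for acupuncture against HIBD and by -0.00180 for acupuncture against normal. The adjusted exact permutation p was 0.4 for each of the 3 differences in the mean.

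HIBD was compared with normal to ask whether the damage went with a change of isoform usage, and limma on the arcsine of the square root of each share called no gene. Of the 2007 genes tested among the 3059, 0 passed an adjusted p of 0.05, against 0.0% of all 2906 multi-isoform genes tested. An unadjusted p under 0.05 was reached by 222 of the 2007 genes (11.1%), against 9.81% of all genes tested, and the smallest adjusted p from limma was 0.0652. The count-based test of edgeR called 2 genes (0.0699% of all genes it tested), and 72 of the 1970 genes it tested among the 3059 had an unadjusted p under 0.05 (3.65%), against 5.1% of all. By group mean, 175 genes (5.75%) had a different leading isoform, against 6.99% of all multi-isoform genes, and in 170 of the 175 the leading isoform also varied among libraries of one of the groups. In 16 genes both leading isoforms had shares that did not overlap between the groups, against 0.571% of all multi-isoform genes. At least 1 isoform without overlap was found in 197 of the 2007 genes (9.82%), against 8.33% of all. The share was higher in all HIBD libraries for 160 isoforms (background 3.1%) and lower for 167 (background 3.15%), of 4455 tested. The median absolute difference was 3.30 points.

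Per comparison, genes were taken in order of limma p until 2 isoforms with a higher and 2 with a lower share were named. In each gene the isoform with the largest share difference was used. Filling both directions brought in ENSRNOG00000006957, ENSRNOG00000058975 and ENSRNOG00000020425, at ranks 9, 7 and 5 by p. The limma and edgeR adjusted p given with a named isoform are those of its gene, over all its tested isoforms. The limma p draws its spread from all 12 libraries, while the SE is of untransformed shares in the 2 groups compared. The groups of the named isoforms did not overlap, which their choice by p favours and which is no further support. The edgeR adjusted p was 1.0 for 5 of the genes, ENSRNOG00000051606, ENSRNOG00000006957, ENSRNOG00000012098, ENSRNOG00000001852 and ENSRNOG00000007607, in the comparison that named each. ENSRNOT00000083011 of ENSRNOG00000010999 held 98.2%, 98.1%, 93.1% and 98.96% of the gene's FPKM in normal, 37.2%, 49.5%, 37.8% and 31.1% in HIBD, and 98.0%, 94.7%, 59.6% and 97.6% in acupuncture libraries. It was the leading isoform everywhere but in HIBD 2, 16 and 18, where ENSRNOT00000078372 held 61.3%, 56.8% and 67.5%. Acupuncture 35 stood between the other acupuncture libraries and the HIBD libraries. With 5.11 CPM the gene was near the level limit. The gene's summed level was similar in the 3 groups, 2.02 ± 0.156 FPKM (SD, n = 4) in normal, 2.25 ± 0.447 in HIBD and 1.95 ± 0.161 in acupuncture libraries. Newly assembled transcripts, outside these values, took 0% to 10.9% of the summed FPKM in normal, 6.94% to 24.2% in HIBD and 17.6% to 34.1% in acupuncture libraries. The share was 58.2 ± 4.07 points (SE) lower in HIBD than in normal libraries, with a limma adjusted p of 0.0652 and an edgeR adjusted p of 0.0519. On log2 odds with 0.1 FPKM added the limma adjusted p was 0.139. It passed 0.05 in limma with untransformed shares (0.0438), on log2 odds with 1 FPKM added (0.0372), in the fit of these 2 groups alone (0.00247), and with 2 of the 12 libraries left out. These isoforms have nearly the same length (ratio 0.995).

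ENSRNOT00000075144 of ENSRNOG00000046000 held 56.9%, 75.3%, 45.2% and 45.4% in normal and 97.3%, 92.6%, 91.2% and 96.0% in HIBD libraries. It held 95.2%, 99.6%, 98.0% and 91.8% in acupuncture libraries. All 8 HIBD and acupuncture libraries were above all 4 normal libraries. The gene has 1 other annotated isoform, ENSRNOT00000081565, which supplied 1.98, 1.72, 3.05 and 2.79 FPKM in normal libraries and at most 0.606 FPKM in the other 8. The difference for HIBD against normal was 38.6 ± 7.22 points (SE; limma adjusted p = 0.0652), and edgeR gave an adjusted p of 0.598. The limma adjusted p was 0.0438 with untransformed shares and 0.0372 on log2 odds with 1 FPKM added. With 0.1 FPKM added it was 0.139, and in the fit of these 2 groups alone it was 0.152.

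ENSRNOT00000077162 of ENSRNOG00000051606 held 63.3%, 53.9%, 54.7% and 58.6% in normal libraries and 39.9%, 35.1%, 37.1% and 35.0% in HIBD libraries. The acupuncture libraries, at 41.7%, 39.5%, 37.6% and 47.3%, lay between these groups or among the HIBD libraries. A much shorter isoform, ENSRNOT00000085164, led in all HIBD and all acupuncture libraries, so this is one of the 2 genes with a leading isoform constant within groups. The difference was -20.9 ± 2.43 points (SE; limma adjusted p = 0.0954). The limma adjusted p was 0.0438 with untransformed shares and 0.0731 on log2 odds with 1 FPKM added. With 0.1 FPKM added it was 0.139, and in the fit of these 2 groups alone it was 0.152. The length of ENSRNOT00000085164 was 0.026 of that of the gene's longest isoform, against 0.187 for ENSRNOT00000077162. Since FPKM is per length, ENSRNOT00000085164 led by FPKM with fewer estimated counts than ENSRNOT00000077162.

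ENSRNOT00000009542 of ENSRNOG00000006957, a gene of 926.8 CPM, held 17.2%, 20.02%, 13.6% and 21.9% in normal and 27.6%, 29.0%, 30.2% and 34.4% in HIBD libraries. The acupuncture libraries stood between, at 25.05%, 25.6%, 22.2% and 24.7%. The difference for HIBD against normal was 12.1 ± 2.34 points (SE; limma adjusted p = 0.124). In this gene, newly assembled transcripts that the shares leave out took 15.5% to 25.7% of the summed FPKM in normal and 24.9% to 33.5% in HIBD libraries.

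**Figure D4:**
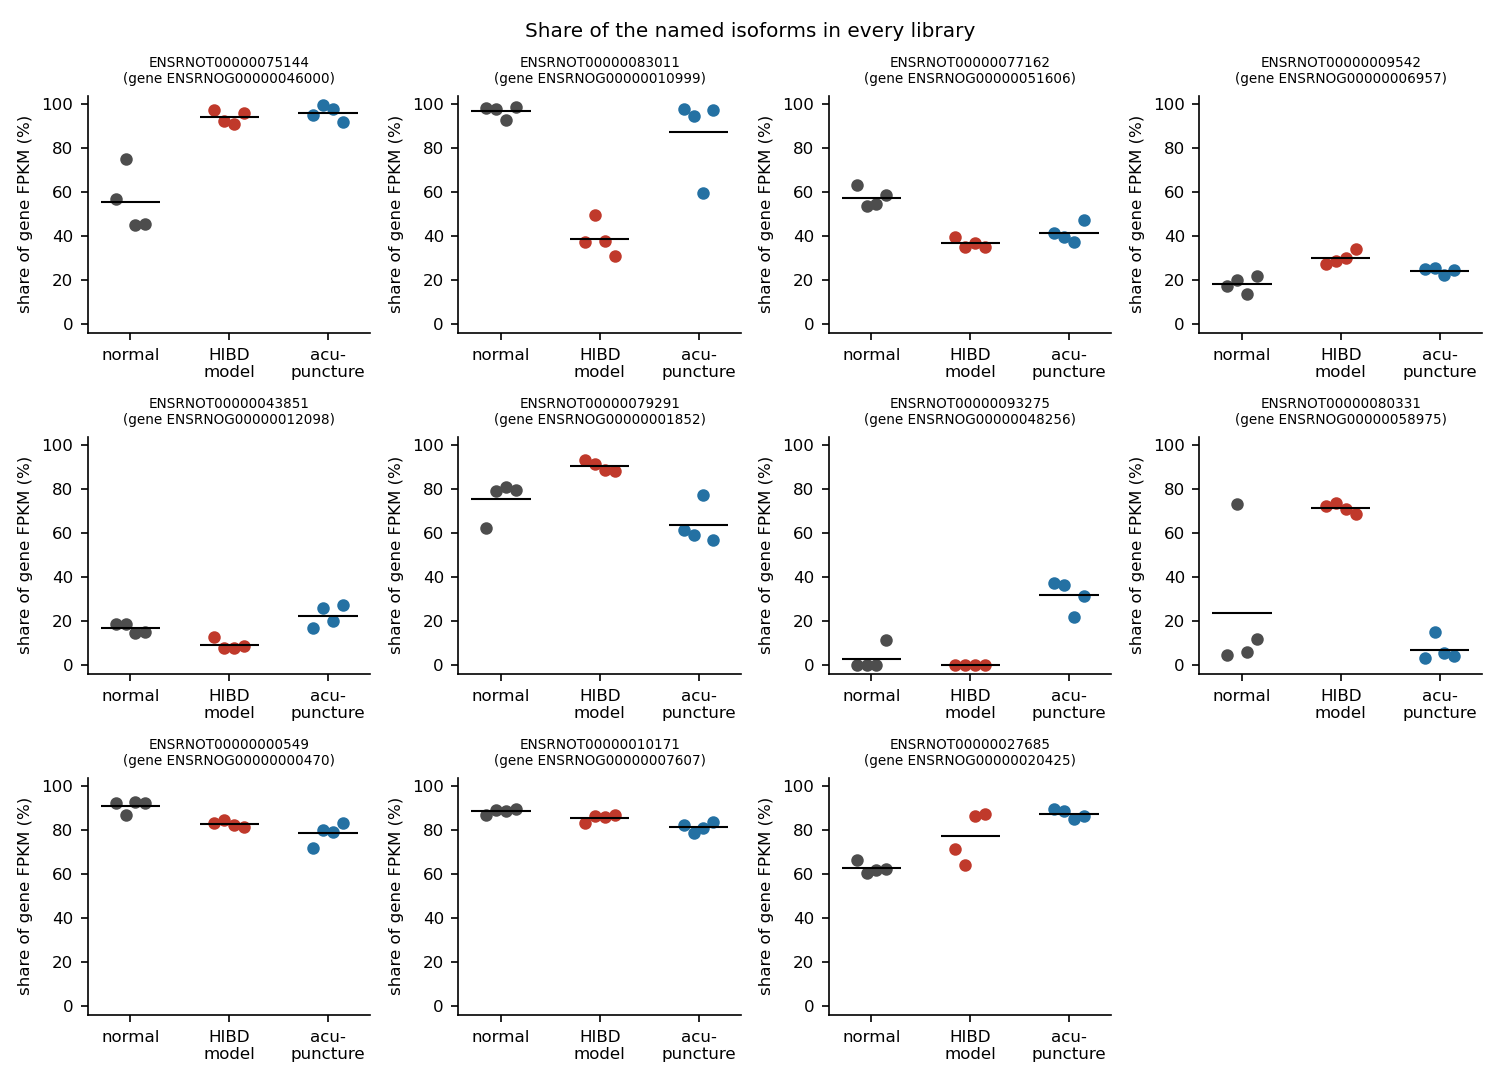
Share of each named isoform (vertical axis, % of the gene's annotated FPKM) in the 4 libraries of each group (horizontal axis), with lines at group means. The isoforms were chosen through the low limma p of their genes in a comparison, so separated groups are favoured. ENSRNOT00000075144 is at 45.2% to 75.3% in normal libraries and at 91.2% to 99.6% in the other 8, the one difference past the threshold being acupuncture against normal.

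Acupuncture was compared with HIBD to ask what the treatment went with, and limma again called 0 of the 2007 genes, against 0.0% of all genes tested. An unadjusted p under 0.05 was reached by 108 genes (5.38%), against 5.44% of all, and the smallest limma adjusted p was 0.102. The count-based test of edgeR called 4 genes (0.14% of all genes it tested), and 54 had an unadjusted p under 0.05 (2.74%), against 3.95% of all. A different leading isoform by group mean was found in 162 genes (5.33%), against 6.69% of all, and it varied within one of the groups in 161 of them. In 7 genes both leading isoforms were without overlap (background 0.32%). At least 1 isoform without overlap was found in 78 of the 2007 genes (3.89%), against 3.61% of all. The share was higher in all acupuncture libraries for 65 isoforms (background 1.36%) and lower for 66 (background 1.35%). The median absolute difference was 2.66 points.

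ENSRNOT00000080331 of ENSRNOG00000058975 held 72.4%, 73.6%, 71.1% and 68.8% in HIBD libraries and 3.39%, 15.1%, 5.60% and 3.98% in acupuncture libraries. The normal libraries fell at both levels, with 73.3% in normal 10 and 4.63%, 5.84% and 12.1% in the other normal libraries. The remaining output also moved in blocks. ENSRNOT00000078210 was listed at 0 in 9 libraries and held 85.9% in normal 13, 78.5% in acupuncture 5 and 80.1% in acupuncture 22. ENSRNOT00000085263 held 93.5% to 94.7% in normal 8, normal 11, acupuncture 35 and acupuncture 55. These 3 isoforms have the same length within rounding, and the gene's summed level was 35.3 ± 7.78 FPKM (SD, n = 4) in normal, 37.1 ± 9.62 in HIBD and 46.5 ± 7.99 in acupuncture libraries. The difference for ENSRNOT00000080331 was -64.5 ± 2.92 points (SE; limma adjusted p = 0.285), and it passed in the fit of these 2 groups alone, without the split normal libraries (limma adjusted p = 0.00516). The edgeR adjusted p was 0.486.

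ENSRNOT00000079291 of ENSRNOG00000001852 held 93.2%, 91.7%, 88.8% and 88.5% in HIBD libraries and 61.4%, 59.1%, 77.6% and 57.0% in acupuncture libraries. Normal libraries held 62.3%, 79.4%, 81.1% and 79.6%, below all HIBD libraries. The difference for acupuncture against HIBD was -26.7 ± 4.84 points (SE; limma adjusted p = 0.102). ENSRNOT00000043851 of ENSRNOG00000012098 held 13.0%, 7.68%, 7.90% and 8.76% in HIBD libraries, 17.0%, 26.2%, 19.9% and 27.3% in acupuncture libraries and 18.6%, 18.6%, 14.5% and 15.3% in normal libraries. The HIBD libraries were the lowest of the 12. The difference for acupuncture against HIBD was 13.3 ± 2.76 points (SE; limma adjusted p = 0.102).

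ENSRNOT00000093275 of ENSRNOG00000048256 was listed at 0 in all 4 HIBD libraries and in normal 8, 10 and 11. It held 11.6% in normal 13 and 37.6%, 36.7%, 21.9% and 31.3% in acupuncture libraries. The gene was near the level limit, with 5.01 CPM, and its summed level was 0.849 ± 0.260 FPKM (SD, n = 4) in HIBD and 1.26 ± 0.679 in acupuncture libraries. The isoform itself reached 0.836, 0.442, 0.197 and 0.218 FPKM in acupuncture libraries. The difference was 31.9 ± 3.59 points (SE; limma adjusted p = 0.102), and edgeR gave an adjusted p of 0.0407 for the gene. In the fit of these 2 groups alone the limma adjusted p was 0.0429. On log2 odds the limma adjusted p was 0.295 with 0.1 FPKM added and 0.904 with 1 FPKM added, more than the isoform's own level in any library.

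Acupuncture was compared with normal, and 1 gene passed. Of the 2007 genes tested, limma called 1, against 0.0344% of all genes tested. It was ENSRNOG00000046000, where the share of ENSRNOT00000075144 rose by 40.4 ± 7.28 points (SE) to 96.1% ± 3.40 (SD, n = 4) from 55.7% ± 14.2 in normal libraries (limma adjusted p = 0.0494). It passed in 4 of the 12 fits that left out a library, with limma adjusted p from 0.00199 to 0.184, and edgeR gave an adjusted p of 0.452. The gene's summed level was 5.56 ± 1.02 FPKM in normal, 6.74 ± 0.577 in HIBD and 7.98 ± 1.66 in acupuncture libraries (SD, n = 4). An unadjusted p under 0.05 was reached by 212 genes (10.6%), against 9.57% of all genes tested. The count-based test of edgeR called 4 genes (0.14% of all it tested), none of which was ENSRNOG00000046000, and 66 had an unadjusted p under 0.05 (3.35%), against 4.93% of all. A different leading isoform by group mean was found in 191 genes (6.28%), against 7.63% of all, and in 187 of them it varied within one of the groups. In 17 genes both leading isoforms were without overlap (background 0.616%). At least 1 isoform without overlap was found in 201 of the 2007 genes (10.0%), against 8.95% of all. The share was higher in all acupuncture libraries for 162 isoforms (background 3.3%) and lower for 168 (background 3.33%). The median absolute difference was 3.27 points.

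ENSRNOT00000027685 of ENSRNOG00000020425 held 66.5%, 60.4%, 62.1% and 62.6% in normal libraries and 89.6%, 88.9%, 85.2% and 86.3% in acupuncture libraries. The HIBD libraries were split, with 71.4% and 64.3% in HIBD 2 and 8 and 86.6% and 87.6% in HIBD 16 and 18. The difference was 24.6 ± 1.65 points (SE; limma adjusted p = 0.165), and it passed in the fit of these 2 groups alone (limma adjusted p = 0.00895). The edgeR adjusted p was 0.412. Newly assembled transcripts took 17.4% to 18.9% of this gene's summed FPKM in acupuncture libraries at most 1.54% in normal libraries and up to 23.6% in a HIBD library.

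ENSRNOT00000000549 of ENSRNOG00000000470 held 92.5%, 86.8%, 92.8% and 92.4% in normal and 72.0%, 79.97%, 79.1% and 83.3% in acupuncture libraries, with 83.2%, 84.8%, 82.7% and 81.3% in HIBD libraries. The difference for acupuncture against normal was -12.5 ± 2.77 points (SE; limma adjusted p = 0.165). None of this gene's other annotated isoforms reached the count limit set for a relative length. The difference thus depends on the FPKM of isoforms with few estimated counts. For this gene edgeR gave no adjusted p. ENSRNOT00000010171 of ENSRNOG00000007607 held 86.8%, 89.1%, 89.0% and 89.6% in normal and 82.6%, 78.6%, 80.8% and 83.8% in acupuncture libraries. Its difference was -7.16 ± 1.28 points (SE; limma adjusted p = 0.165), and its HIBD libraries lay at 83.5%, 86.5%, 86.1% and 87.0%, overlapping both other groups. The comparisons with normal share the 4 normal libraries, and the comparisons with HIBD share the 4 HIBD libraries.

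A test for any difference among the 3 groups, the F-test of limma added after the values were seen, called 0 of the 2007 genes (0.0% of all genes tested). An unadjusted p under 0.05 was reached by 202 of them (10.1%), against 9.02% of all genes tested, and the smallest limma adjusted p was 0.0809.

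Some genes had a leading isoform that jumped between separate levels, and no jump fell exactly between whole groups. With the shares of the leading isoform sorted over the 12 libraries, 298 of the 3041 genes (9.80%) had a step of 30 points or more between neighbours, a limit set after the values were seen. In 107 of them a single library stood on one side, most often HIBD 8 (18 genes), HIBD 16 (12 genes) and acupuncture 35 (12 genes), and such a step cannot follow the groups. In the other 191 genes at least 2 libraries stood on each side. In 0 of these 191 genes did the step fall between whole groups. Such a step needs the 4 libraries of 1 group alone on one side, which few of the possible splits give. The 0 therefore does not tell whether the steps were related to the groups. In 7 of the 191 genes the step was 1 library away from the groups. No share over all multi-isoform genes is given beside these counts. In ENSRNOG00000010999 and ENSRNOG00000013135 the 4 HIBD libraries and 1 acupuncture library were below the step and the other 7 above it. In ENSRNOG00000012369, ENSRNOG00000056753 and ENSRNOG00000008837 only 3 normal libraries were below it, and in ENSRNOG00000010551 and ENSRNOG00000016031 only 3 acupuncture libraries were. These genes were named after their values were seen.

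The gene with the lowest edgeR p in each comparison is named here after the values were seen, and in none of these 3 genes did the leading isoform have a step of 30 points. For acupuncture against normal it was ENSRNOG00000012295 (edgeR adjusted p = 0.001, limma adjusted p = 0.253). Its isoform ENSRNOT00000087344 held 32.6%, 40.9%, 31.9% and 37.6% in acupuncture libraries and 40.8% in HIBD 16, and at most 0.0720% in the other 7 libraries. All 4 acupuncture libraries and 1 HIBD library thus stood apart. For acupuncture against HIBD it was ENSRNOG00000007110 (edgeR adjusted p = 0.00322, limma adjusted p = 0.285), where ENSRNOT00000088179 held 73.3%, 75.7%, 57.2% and 35.5% in HIBD libraries and at most 0.297% in acupuncture libraries. Normal libraries held 71.7%, 0.120%, 82.2% and 37.0%, so normal 10 stood with the acupuncture libraries.

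For HIBD against normal the gene with the lowest edgeR p was ENSRNOG00000011678 (edgeR adjusted p = 0.0082, limma adjusted p = 0.502). Its isoform ENSRNOT00000093753 was listed at 0 in all 4 normal libraries and stood at 0.158, 0.157, 0.211 and 0.159 FPKM in HIBD libraries, and at 0.140 to 0.190 FPKM in acupuncture libraries. These low levels were 2.01%, 15.9%, 25.6% and 1.86% of the gene in HIBD libraries, so this isoform separated both other groups from normal. The leading isoform ENSRNOT00000015605 held 88.8%, 97.0%, 95.6% and 89.0% in normal libraries and 94.7%, 64.0%, 43.8% and 85.7% in HIBD libraries. The level of the leading isoform was also low in particular libraries, with 0.633 FPKM in HIBD 8, 0.362 in HIBD 16 and 0.482 in acupuncture 35, against 5.05 to 9.01 FPKM in the other 9 libraries. In this gene newly assembled transcripts held up to 79.6% of the summed FPKM in a HIBD library and up to 83.1% in an acupuncture library, against at most 6.27% in normal libraries.

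**Figure D5:**
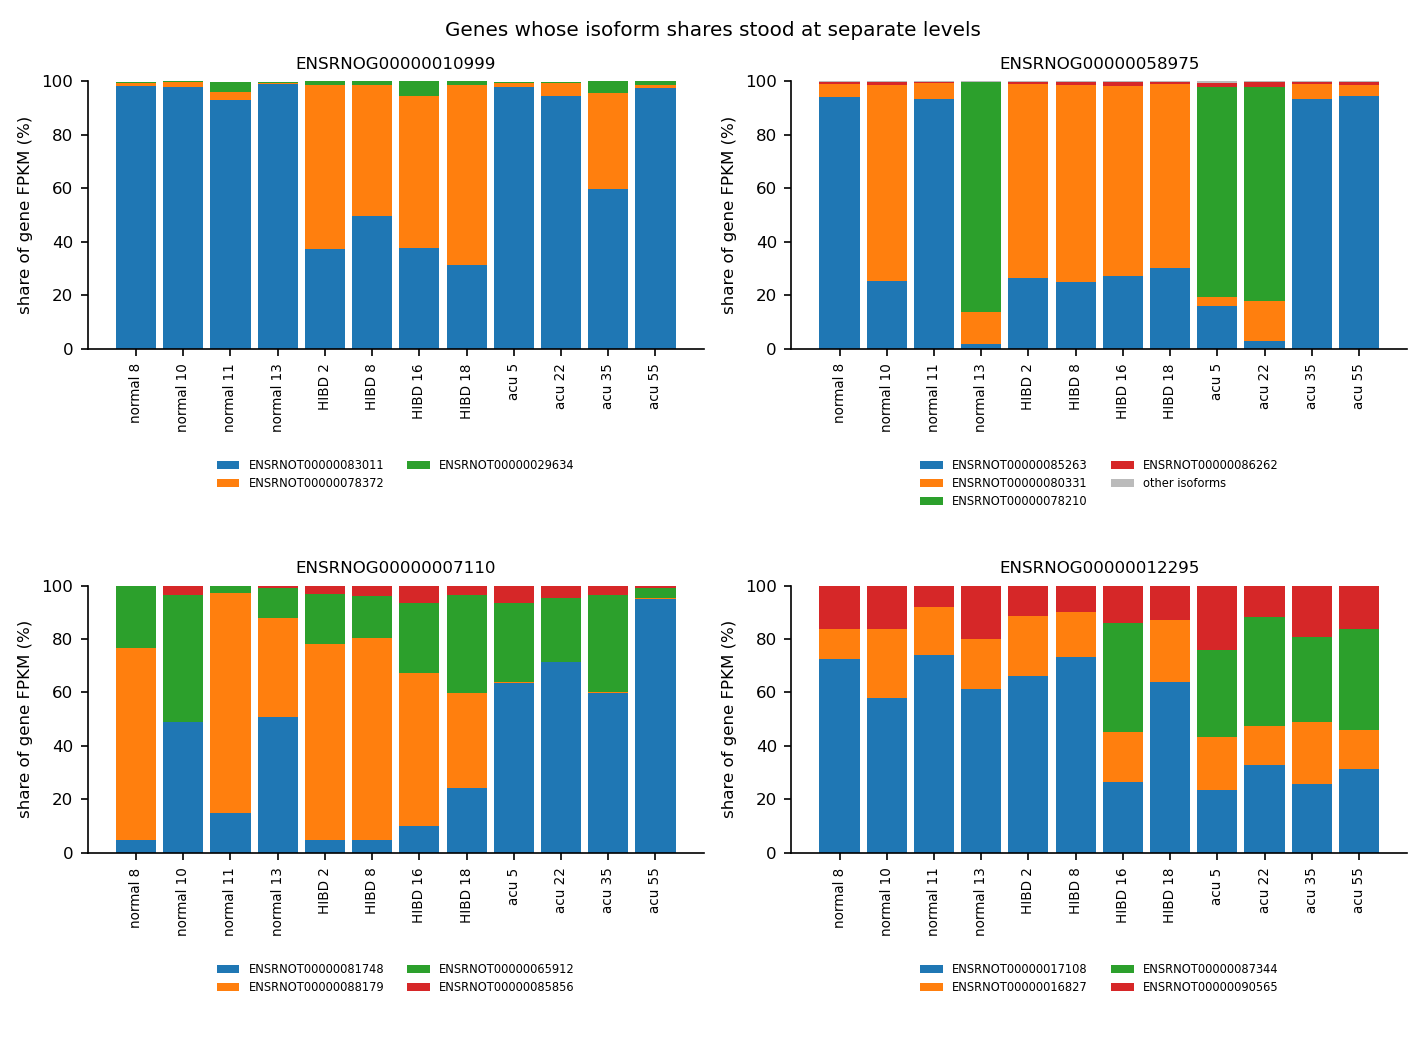
Stacked shares (vertical axis, % of the gene's annotated FPKM) in each of the 12 libraries (horizontal axis) for 4 genes picked by hand after the values were seen. Each colour is 1 isoform, and isoforms with a mean share under 1% are drawn together in grey. In ENSRNOG00000058975 single isoforms hold 68.8% to 94.7% in every library, and libraries of the normal and acupuncture groups stand at different levels.

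The other gene with a leading isoform constant within groups was ENSRNOG00000014584. ENSRNOT00000020407 held 47.5%, 49.3%, 53.3% and 43.9% in HIBD libraries and led there, while ENSRNOT00000041921 led in all normal libraries, at 53.0%, 40.5%, 43.9% and 43.9%, and in all acupuncture libraries, at 41.4%, 48.4%, 47.1% and 46.2%. The leading share was within a few points of the second in several libraries, such as 40.5% against 40.1% in normal 10. None of the 3 comparisons passed in this gene (limma adjusted p = 0.444, 0.895 and 0.988 for HIBD against normal, acupuncture against HIBD and acupuncture against normal).

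Newly assembled transcripts, which lie in 960 of the 3059 genes, were outside the shares. In 953 of those genes with values they took 15.3% to 21.5% of the summed FPKM per library. The median percent per gene was 6.30 to 8.77 in normal, 8.75 to 11.0 in HIBD and 8.60 to 10.5 in acupuncture libraries, so the normal libraries were mostly the lowest. Whether this had a part in the differences between shares was not tested gene by gene. With these transcripts in the denominator limma called 1 gene for HIBD against normal, 0 for acupuncture against HIBD and 0 for acupuncture against normal, in a fit of 3375 genes in place of 2906. ENSRNOG00000046000 has no assembled transcript, so its difference for acupuncture against normal stayed at 40.4 points while its limma adjusted p became 0.0545.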

How the data were processed

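RNA of 12 rat prefrontal cortex libraries was measured. The authors deposited FPKM per transcript for each library and 1 table of estimated counts (whole numbers, rounded up from model estimates, per the values). The submitters' processing notes name HTSeq 0.6.0 and Rnor_6.0; the sources used here give neither the assembly and quantification steps nor the depth in reads. Count totals were 714904584 to 1090316733 per library, and what 1 estimated count is worth is unknown, so they set no counting error. The genes, lists and tests were chosen with earlier results of these data known.

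Rows of the files were joined by their order: over 12003 rows above 2000 counts in each library, counts and FPKM differed by a row and a library factor with a median deviation of 0.00103%, against 18.1% after shuffling. Relative length was taken from the count per FPKM, only for rows reaching 100 counts, a limit set after the data were seen.

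Shares were tested with limma 3.58.1 in R 4.3.3 on the arcsine of the square root, with all 12 libraries, a spread trend on gene level and no covariate. The fit held all multi-isoform genes above 0 in every library and isoforms of mean share 0.05 to 0.95; other isoforms were not tested. The Simes p per gene was adjusted by Benjamini-Hochberg over all genes. Standard errors are of untransformed shares. edgeR 4.0.16 (diffSpliceDGE) on the estimated counts was the alternative test. Library-level values had exact permutation tests. Both tests were run on simulated counts with known share changes in HIBD against normal, where edgeR called fewer of the changed genes than limma. The simulated counts varied independently for each isoform, so the simulation does not rank the tests on these data. Other response scales, filters, denominators and normalizations were tried, and each library was left out in turn.

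The rule for naming took genes, per comparison, in order of Simes p, each by its isoform of largest share difference. It stopped at 2 isoforms with a higher and 2 with a lower share, ties going to the higher mean share. The 4 most abundant genes with 2 isoforms of 20% or more were also named. How ties and genes short of the threshold were read was settled after values were seen. The reference tables used here (GRCr8) held no Ensembl identifiers: 0 matched, so gene lists, symbols, sequences and coordinates were not used.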

Additional observations from a re-analysis of the deposited data

Results flagged for a closer look

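In 42 groups of 4 shares of the named isoforms or of library-level values, 6 held a library whose gap to the nearest other library took a larger part of the group's range than Dixon's critical value for 4 samples. Chance gives about 1 in 20 groups, and the isoforms were chosen by p. The share of ENSRNOT00000083011 was 93.1% in normal 11, where the other normal libraries had 98.1% to 98.96%, and 59.6% in acupuncture 35, where the others had 94.7% to 98.0%. ENSRNOT00000079291 was at 62.3% in normal 8, against 79.4% to 81.1% in the other normal libraries. ENSRNOT00000093275 was at 11.6% in normal 13 and listed at 0 in the other normal libraries. ENSRNOT00000080331 was at 73.3% in normal 10, against 4.63% to 12.1%. ENSRNOT00000000549 was at 86.8% in normal 10, against 92.4% to 92.8%.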

How the results depend on the processing

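No paired analysis was made, because the labels name no pairs of libraries across the groups. The count of genes called was small and moved with the settings. For HIBD against normal (0 called) it was 3 with untransformed shares, 2 with log2 odds and 1 FPKM added, 1 with assembled transcripts in the denominator, 3 with only genes of 5 CPM or more fitted, 2 with these 2 groups alone, 2 with edgeR under TMM and 2 under RLE, and 0 to 5 leaving out a library. For acupuncture against HIBD (0 called) it was 5 with 2 groups alone, 4 with edgeR under TMM and 4 under RLE, and 0 to 3 leaving out a library. For acupuncture against normal (1 called) it was 0 with untransformed shares, with log2 odds and 0.1 FPKM added, with shares of estimated counts, with assembled transcripts in the denominator, with no filter on the share, with only genes of 20 CPM or more and without the spread trend. It was 3 with 2 groups alone, 4 with edgeR under TMM and 4 under RLE, and 0 to 5 leaving out a library. Leaving out 1 library called 12, 10 and 13 distinct genes over the 12 fits of the 3 comparisons in that order, at most 2, 2 and 4 fits sharing a gene. What made the calls move with the library left out was not tested.

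The genes with a different leading isoform by group mean were 116, 98 and 123 of 2027 at 20 CPM or more, and 171 to 204, 158 to 188 and 180 to 203 leaving out a library. The excess share distance ranged over libraries left out from 0.182 to 0.532 points for HIBD against normal, from -0.0155 to 0.0719 for acupuncture against HIBD and from 0.215 to 0.531 for acupuncture against normal. The difference in the percent listed at 0 ranged from -0.125 to 0.145, from -0.176 to 0.0837 and from -0.138 to 0.108 points, and for acupuncture against normal it was 0.0522 with shares of estimated counts. The difference in effective isoforms ranged from 0.0168 to 0.0249, from -0.000311 to 0.011 and from 0.02 to 0.0313. The median length difference (log2) ranged from -3.72e-05 to -2.23e-05, from -1.17e-06 to 1.61e-06 and from -3.71e-05 to -2.28e-05, and it passed without normal 10 in both comparisons with normal. All 12 named differences kept their sign under every alternative run. Their groups did not overlap, so leaving out a library could not reverse the difference in mean share. They were also chosen by p, so the constant sign is no further support.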
